A study of Mus musculus with 86 samples.

Results

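The oligos described here tile the 3′ UTR of the mouse gene Sos2 (ENSMUSG00000034801). They were taken as every oligo whose name carries the symbol Sos2 in the count files of the reporter pool, and were ordered by oligo number. There were 353 of them among the 11955 oligos of the pool, which covers 16 UTRs. Of these, 254 carried the genomic sequence and are called tiles 1 to 254, and 99 were mutated partners of a tile, against 7389 and 4566 in the whole pool. Each oligo is 260 nt long and starts 6 nt downstream of the one before it, so neighbouring tiles share nearly all of their sequence and are not replicates of each other.

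The study asked whether the RNA-binding protein TDP-43 (gene Tardbp) sets how much of an RNA reaches neurites. CAD and N2A cells, both mouse neuronal lines, were of the TetOff TDP-43 genotype in all groups apart from the transgene cells named below. In these single-cell clones the endogenous TDP-43 gene was inactivated with CRISPR, and the only functional copy was an HA-tagged TDP-43 transgene that doxycycline represses. Cells without doxycycline are called wild type here and cells given doxycycline for 48 h (2 µg/mL in the labels) are called knockout, so genotype and drug exposure cannot be told apart. Cells were grown on porous membranes and split into soma and neurite fractions. RNA-seq had 3 replicates per group, and further RNA-seq, also with 3 per group, came from CAD cells expressing a wild-type or a Q331K TDP-43 transgene. By the methods, these transgene lines were made from wild-type CAD cells. Their transgene is induced by doxycycline, which was given to the lines with either protein. The massively parallel reporter assay (MPRA) placed the oligos in the 3′ UTR of a reporter RNA in CAD cells, with 4 replicates per genotype and fraction. RNA Bind-n-Seq (RBNS) mixed the RNA pool with 0, 5, 50 or 500 nM recombinant TDP-43, with 1 input library, 1 library without protein and 2 libraries at every other concentration. SLAM-seq labelled the reporter RNAs with 4-thiouridine (4SU) and read the label, as T to C conversions, at 0 h and 12 h of chase, with 2 libraries of wild-type cells at 0 h, 3 in the other labelled groups and 3 without 4SU. Nothing in the sources used here says which replicates were separate cultures, so the p-values measure the spread between these samples, which may be partly technical.

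Sos2 is a guanine nucleotide exchange factor that loads GTP onto Ras. It is held in complex with the adaptor Grb2, which brings it to activated receptor tyrosine kinases at the plasma membrane. TDP-43 binds single-stranded RNA that is rich in UG repeats, controls splicing in the nucleus and also travels into neurites, where 3′ UTRs carry many of the elements that direct RNA transport and stability.

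The tiles were placed on GRCm38 by the motif positions in the names of the mutated oligos, and 1 placement matched all 254 tiles. They cover 1778 nt on the minus strand, chr12:69583670-69585447. The annotated 3′ UTR of the protein-coding isoform Sos2-201 runs from the base after the stop codon to the transcript end, chr12:69583766-69585122 (1357 nt). Tiles 1 to 11 lie wholly in the coding sequence of the last exon, tiles 1 to 55 hold at least 1 coding base, tiles 56 to 238 (183 tiles) lie wholly in the UTR, and the last 16 tiles run up to 96 nt past the annotated end. The design mutated every UGUGU, as well as each GUGUG and each GUAUG, and only 4 such sites occur in the Sos2 tiles. As a result 39.0% of the Sos2 tiles have a mutated partner, against 61.8% in the whole pool. The partner replaces each motif base by its complement, so that TGTGT becomes ACACA. The sites are shown because the mutated oligos differ from their tiles at these bases alone. They are given 5′ to 3′ in the sense of the RNA, as DNA letters from GENCODE transcripts on GRCm38, with the motif in capitals.
Site 1, chr12:69584379-69584408, in tiles 134 to 176: aatagaatgcacTGTGTttattattttgtt
Site 2, chr12:69584316-69584345, in tiles 145 to 186: agaagaagggcaTGTGTtcattaagatgtg
Site 3, chr12:69584282-69584311, in tiles 150 to 192: ttgttttgcagtGTATGgtgtttagctaat
Site 4, chr12:69583891-69583920, in tiles 215 to 254: agtgatcaagGTATGTATGttatgctgata

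Sites 1 to 3 lie near the middle of the UTR, starting at UTR positions 727, 790 and 824, and site 4 lies near its end, at position 1213. Site 4 holds GTATG as an overlapping repeat. GTGTG does not occur in the tiles. In the text below, the tiles fall into 5 segments. These are tiles 1 to 55, which start in coding sequence, tiles 56 to 133 before the sites (78 tiles), tiles 134 to 192 with sites 1 to 3 (59), tiles 193 to 214 between the sites (22), and tiles 215 to 254 with site 4 (40). All sites are exonic and lie in the 3′ UTR.

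A further pair of stretches is shown because tiles 100 to 106 were the tiles called enriched by TDP-43 at 500 nM (below). These are the first 30 bases of the first and the last of those tiles, again from GRCm38 and in the sense of the RNA.
Tile 100 start, chr12:69584824-69584853: aaaagtcaaaatacaaacaaaagagagaaa
Tile 106 start, chr12:69584788-69584817: gaaggaaagaatttgaaatattaaaatgca
Neither stretch holds any of the 3 motifs, and none of tiles 100 to 106 does. The first 30 bases of these 7 tiles hold 22 to 29 purines, where the 254 tiles range from 5 to 29 with a median of 15, and 10 of the 254 reach 22. This property was picked after the binding values were seen and carries no test. The isoform Sos2-206, which lacks all 4 sites, ends by annotation at the first base of tile 100.

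Depth was 22726534 to 32895542 estimated counts per library in the CAD and N2A knockout RNA-seq and 9783050 to 15870647 in the transgene RNA-seq. It was 7923270 to 12208997 unique molecular identifiers (UMIs) in the MPRA, 1806779 to 9646262 reads in RBNS and 10782983 to 33024830 reads in SLAM-seq. The targeted gene Tardbp fell with doxycycline in every comparison of like fractions, for example from 669 to 1002 TPM (salmon's transcript abundance per length, scaled to the library) in wild-type CAD soma to 115 to 159 TPM in knockout soma, and from 756 to 982 to 235 to 263 TPM in N2A soma, so residual Tardbp RNA was present.

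In both lines, the ratio of neurite to soma Sos2 RNA of the cells themselves was lower in knockout than in wild-type cells. Whether wild-type cells held more of it in neurites than in soma turned with the scaling, as given below. Levels here and in the MPRA are CPM after TMM scaling, which multiplies each library total by a factor set so that most features do not differ, and LR is log2 of neurite over soma. These factors were 0.725 to 0.864 in CAD neurites, 1.20 to 1.27 in CAD soma, 0.857 to 0.942 in N2A neurites and 1.04 to 1.18 in N2A soma. In wild-type CAD cells Sos2 stood at 36.4, 39.7 and 38.1 CPM in soma and at 42.0, 45.6 and 47.8 CPM in neurites. In knockout CAD cells it stood at 54.9, 55.9 and 54.9 CPM in soma and at 39.8, 46.6 and 43.6 CPM in neurites. The neurite values of the genotypes overlap, while every knockout soma lies above every wild-type soma. LR went from 0.25 (adjusted p = 0.00673, and 0.0261 to 0.0768 with a replicate left out) to −0.35 (adjusted p = 0.000391), a change of −0.60 (log2, SE 0.097, 95% interval −0.80 to −0.39). The change passed the test (edgeR quasi-likelihood, Benjamini-Hochberg adjusted p = 0.00494, FDR of 0.01), which called 0.208% of the 17343 genes lower. The soma level rose by 0.54 (log2, SE 0.068, adjusted p = 1.35e-05) and the neurite level differed by −0.06 (SE 0.069, adjusted p = 0.552).

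N2A cells gave the larger value. Wild-type N2A soma held 50.9, 56.0 and 61.1 CPM and wild-type neurites 82.4, 87.1 and 83.3 CPM. Knockout soma held 78.8, 85.4 and 88.1 CPM and knockout neurites 64.7, 71.8 and 68.7 CPM. Here the genotypes do not overlap in either fraction, with soma higher and neurites lower in knockout cells. LR went from 0.59 to −0.30, a change of −0.89 (SE 0.113, 95% interval −1.13 to −0.65, adjusted p = 0.00203), the lowest of the 2 genes called lower among 17912 (0.0112%). The soma level rose by 0.59 (SE 0.080, adjusted p = 8.68e-05), and the neurite difference of −0.30 (SE 0.080, adjusted p = 0.0143) missed the FDR of 0.01. Whether the change differs between the lines was not tested. When replicate 1, 2 or 3 was left out of all 4 groups, the change stayed between −0.66 and −0.56 in CAD and between −0.96 and −0.84 in N2A, but missed the FDR of 0.01 each time (adjusted p = 0.0390 to 0.129 in CAD, 0.0228 to 0.261 in N2A).

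Other scalings, added after the data were seen, turned some of these directions. Against plain library totals, without TMM, Sos2 stood at 46.2 to 49.4 CPM in wild-type CAD soma and at 32.7 to 39.7 CPM in neurites, so neurites were lower in 3 of 3 replicates. The LR in wild-type CAD cells was then −0.43, beside a median of −0.69 over all genes. In wild-type N2A cells, neurites (72.3 to 79.6 CPM) stayed above soma (60.1 to 70.0 CPM) with plain totals, with an LR of 0.25 beside a median of −0.37. In TPM summed over isoforms, neurites lay below soma in all replicates of both lines and genotypes, and the wild-type LR, fitted on log2(TPM + 1), was −1.29 in CAD and −0.81 in N2A, beside medians of −1.16 and −0.94.

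The LR change stayed below 0 under these scalings but did not always pass. With plain totals it was −0.48 (SE 0.112, edgeR, adjusted p = 0.0659) in CAD and −0.85 (SE 0.106, adjusted p = 0.00258) in N2A. With limma on log2(TPM + 1) it was −0.32 (SE 0.356, adjusted p = 0.622) in CAD and −0.77 (SE 0.425, adjusted p = 0.588) in N2A. The soma rise was 0.53 (adjusted p = 6.42e-05) and 0.50 (adjusted p = 0.000309) with plain totals. In TPM the soma difference had the other sign, with means of 33.2 ± 8.45 (SD, n = 3) in wild-type and 21.8 ± 2.46 in knockout CAD cells and of 44.6 ± 8.75 and 33.9 ± 2.06 in N2A cells (−0.56, adjusted p = 0.198, and −0.37, adjusted p = 0.560). The isoform Sos2-207, described below, made up much of the wild-type TPM. Without it the soma means were 13.3 ± 3.40 and 21.7 ± 2.37 TPM in wild-type and knockout CAD cells and 20.9 ± 2.18 and 31.8 ± 0.590 TPM in N2A cells.

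With the TDP-43 transgenes, the order of the fractions also turned with the scaling. After TMM, Sos2 stood higher in neurites than in soma in all replicates. Cells with the wild-type protein held 62.5, 55.1 and 62.4 CPM in soma and 69.8, 75.5 and 63.9 CPM in neurites. Cells with the Q331K protein held 57.3, 55.1 and 60.4 CPM in soma and 75.6, 72.8 and 76.6 CPM in neurites, and in both fractions the values overlap between the proteins. Sos2 had an LR of 0.22 (adjusted p = 0.0358) with the wild-type and 0.38 (adjusted p = 0.000802) with the Q331K protein. Against plain library totals, neurites were lower than soma in all replicates, at 56.3 to 61.0 against 68.1 to 75.5 CPM with the wild-type and 58.4 to 62.8 against 67.3 to 71.6 CPM with the Q331K protein, and the TPM were lower in neurites as well. The change of 0.17 (SE 0.110, 95% interval −0.07 to 0.40, adjusted p = 0.999) did not pass.

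The isoforms of the gene did not all move alike. They were looked at after the gene's values were seen, and salmon divides shared reads between them by estimate. Sos2-201, the protein-coding isoform that ends at the tiled 3′ UTR, rose in soma by 1.35 (log2, adjusted p = 0.00594) in CAD and by 1.40 (adjusted p = 0.00554) in N2A, in fits that called 4.15% and 3.05% of all transcripts. Its LR change was −0.30 (SE 0.339, adjusted p = 0.992) in CAD and −0.88 (SE 0.330, adjusted p = 0.167) in N2A. Sos2-206, the coding isoform without the 4 sites, stood above Sos2-201 in wild-type cells. Mean TPM were 7.52 against 3.17 in CAD soma and 9.77 against 5.52 in N2A soma. In knockout N2A soma the order was the other way, at 10.6 against 12.7 TPM. Sos2-206 had LR changes of −0.84 (SE 0.190, adjusted p = 0.264) in CAD and −1.29 (SE 0.149, adjusted p = 0.0114) in N2A. Neither isoform's LR change passed in either line. In neurites, Sos2-206 differed by −0.97 (edgeR, adjusted p = 0.000649, where 1.72% of all transcripts were called) in N2A and by −0.58 (0.0198) in CAD. Sos2-201 differed there by 0.52 (0.267) in N2A and by 1.05 (0.0191) in CAD, so the estimates had opposite signs. Of these neurite differences, only that of Sos2-206 in N2A passed the FDR of 0.01. As the LR change of neither Sos2-201 nor Sos2-206 passed, the lower LR of the gene could not be assigned to either of them. The soma rise of Sos2-201 missed the FDR of 0.01 when replicate 1, 2 or 3 was left out (adjusted p = 0.0225 to 0.140 in CAD, 0.0190 to 0.196 in N2A).

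Sos2-202, a retained-intron RNA that ends in the same last exon and holds the whole annotated UTR, was low. Its LR change was above 0 in both lines, where that of the gene was below 0. In N2A cells the LR change of Sos2-202 did not pass (edgeR, adjusted p = 0.0640). Sos2-202 had the higher mean TPM in knockout cells in both fractions of both lines. It was listed at 0 TPM in all 3 wild-type CAD neurite libraries and at 1.36, 1.70 and 1.84 TPM in knockout ones, with 0.541, 0.730 and 0.657 TPM in wild-type and 3.53, 2.58 and 3.17 TPM in knockout soma. In N2A neurites it held 0, 0.0562 and 0.0741 TPM in wild-type and 1.74, 2.49 and 2.19 TPM in knockout cells. Knockout lay above wild type in each of these comparisons. The rise passed in CAD neurites (adjusted p = 3.62e-06), CAD soma (0.000433) and N2A neurites (0.00210), and N2A soma had an adjusted p of 0.145. With a replicate left out, the rise in CAD neurites still passed, and those in CAD soma (adjusted p = 0.0183 to 0.0393) and N2A neurites (0.0279 to 0.127) did not. The LR change of Sos2-202 in CAD cells also passed, in the higher direction (adjusted p = 0.000754, where 0.0795% of all transcripts were called in either direction), but not with a replicate left out (0.0524 to 0.116). No fold is given against groups at or near 0.

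Sos2-207 fell with doxycycline in both fractions of both lines. It is an annotated retained-intron RNA inside the gene, chr12:69614446-69617119, and does not overlap the tiles. In CAD soma it held 14.2, 21.9 and 23.7 TPM in wild-type cells and 0.177, 0 and 0.165 TPM in knockout cells. In CAD neurites it held 5.51, 9.85 and 12.2 TPM in wild-type cells and 0.083, 0.764 and 0.183 TPM in knockout cells. N2A soma gave 16.8, 24.5 and 29.8 TPM against 3.38, 0.470 and 2.34 TPM. N2A neurites gave 10.4, 22.6 and 19.0 TPM against 0.0671, 0.412 and 0.102 TPM, so no wild-type library overlaps a knockout library of its fraction. The edgeR difference passed in all 4 comparisons (adjusted p = 0.000258 in CAD soma, 0.000849 in CAD neurites, 0.00473 in N2A soma and 0.000344 in N2A neurites), where the neurite fits called 5.48% and 1.72% of all transcripts. With the replicate number as a block, N2A soma missed the FDR of 0.01 (adjusted p = 0.0157). With a replicate left out the adjusted p was 0.0107 to 0.0972 where it missed the FDR of 0.01, which it did in 10 of 12 cases. The knockout values are too close to 0 for a precise fold. In the transgene cells Sos2-207 stood at 25.1 to 50.0 TPM in all libraries.

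Among 37 genes of the Ras pathway, chosen with earlier results known, Sos2 was the 1 gene called lower in both lines by edgeR at an FDR of 0.01. Its lower LR in both lines was known when it was picked for description, so its calls say nothing about the list. Apart from Sos2, no gene of the list was called lower in N2A cells. With Sos2 counted, 2 of 35 tested were lower and 1 was higher in CAD cells. In N2A cells 1 of 36 was lower and 1 higher, again with Sos2 counted. Over all genes 0.208% and 0.0112% were called lower and 0.225% and 0.0893% higher. The other lower call was Ptpn11, the phosphatase SHP2 that acts upstream of Ras, in CAD cells (LR change −0.51, adjusted p = 0.00494). The higher call in both lines was Ksr2, a scaffold of the Raf, MEK and ERK kinases whose 3′ UTR is also in the pool (4.81 and 4.61). The lower calls depend on the rule. At an FDR of 0.05 there were 3 in CAD and 7 in N2A, and with DESeq2 3 and 8, with Sos2 again the 1 gene in both lines, while with plain library totals Sos2 alone was called in N2A and 0 genes in CAD. The shares of all genes called by these other rules are not given here. These counts can thus not be set against the 0.208% and 0.0112% above. Sos1, the paralogue of Sos2, had LR changes of −0.09 (adjusted p = 0.857) in CAD and −0.30 (adjusted p = 0.0866) in N2A. The median LR change of the list was −0.09 in CAD and −0.34 in N2A, beside −0.005 and −0.01 over all genes, so most of the list lay below 0 in N2A cells without passing the test.

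No reporter with a Sos2 tile was called as having a lower LR in knockout cells. Of 351 Sos2 oligos that passed the count filter (252 tiles and all 99 mutated partners), 0 were called in either direction for the change in LR, by edgeR and by DESeq2 alike, and 16 had an unadjusted p under 0.05. Over the 11918 oligos tested, 5.43% were called, 5.15% higher and 0.277% lower. The values ran from −0.56 to 0.30 with a median of −0.05, and the median over all oligos was −0.01. There were 255 values below 0 and 96 above. The median standard error was 0.091, and the 95% interval of 321 of the 351 oligos lay within ±0.5 of 0. For 336 oligos the interval lay wholly above the estimate of −0.60 for the gene in CAD cells. That estimate had an interval of its own, −0.80 to −0.39, and was −0.48 with plain totals. Reporters and genes were also scaled apart. The 15 oligos whose interval reached −0.60 were unmutated tiles with at most 195 UMIs in their lowest library.

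Segment medians of the LR change lay close together along the UTR. The median was −0.07 in tiles 1 to 55, −0.03 in tiles 56 to 133, −0.06 in tiles 134 to 192, −0.03 in tiles 193 to 214 and −0.07 in tiles 215 to 254. The mutated partners had medians of −0.05 with sites 1 to 3 and −0.04 with site 4. Across tiles, the LR change in replicates 1 and 2 had a Spearman correlation of −0.03 with that in replicates 3 and 4 (252 tiles, which share sequence with their neighbours and all come from the same libraries). The lowest values, in tile 76 (−0.56, SE 0.331), tile 77 and tile 43, and the highest, in tile 46 (0.30), came from tiles with few UMIs. The smallest adjusted p was 0.0409, for tile 59 (−0.31, SE 0.091).

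Values by library show the size of the replicate spread. Tile 1, all coding, held 73.4, 76.5, 71.4 and 76.5 CPM in wild-type soma and 75.0, 60.8, 65.5 and 66.0 CPM in wild-type neurites. In knockout cells it held 69.3, 73.8, 74.4 and 70.5 CPM in soma and 63.1, 60.7, 65.0 and 68.9 CPM in neurites. The genotypes overlap in both fractions, and the LR change was −0.01 (SE 0.080). Tile 103, in the middle of the stretch enriched by TDP-43 in vitro, held 41.1, 37.7, 38.5 and 39.8 CPM in wild-type soma and 34.1, 38.3, 43.0 and 45.6 CPM in wild-type neurites. Its knockout values were 37.7, 41.9, 45.3 and 47.5 CPM in soma and 36.3, 35.1, 39.5 and 40.3 CPM in neurites. Here too the genotypes overlap, with an LR change of −0.22 (SE 0.119, adjusted p = 0.635).

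Tile 156, which carries sites 1 to 3, is shown because its pair had the highest of the 99 pair differences given below. A value picked in this way is extreme by selection, and neither its LR change nor its pair difference passed. It held 63.7, 71.6, 74.4 and 70.3 CPM in wild-type soma and 75.6, 70.7, 70.6 and 73.7 CPM in wild-type neurites. In knockout cells it held 75.8, 75.1, 86.3 and 77.2 CPM in soma and 60.7, 64.7, 68.7 and 75.0 CPM in neurites. The soma values do not overlap between genotypes and the neurite values do. The LR change was −0.28 (SE 0.086, adjusted p = 0.0667). Mutated tile 156 held 68.3, 61.2, 70.1 and 64.7 CPM in wild-type soma and 63.9, 66.2, 62.5 and 64.2 CPM in wild-type neurites, with 64.4, 66.9, 74.0 and 65.9 CPM and 73.3, 68.2, 62.3 and 65.3 CPM in the same fractions of knockout cells. Its genotypes overlap in both fractions and its LR change was 0.03.

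Mutating the motifs did not move the LR change by a detectable amount. In 99 pairs of mutated oligo and tile, the difference of their LR changes ran from −0.28 to 0.31 with a median of 0.03 (median SE 0.106). None of the 99 was called by limma, which was the tool used for pairs, and 1 had an unadjusted p under 0.05. Of the 4551 pairs in the pool, 7.08% were called, nearly all of them lower with the mutation, and the median over the pool was −0.02. The highest Sos2 value was that of tile 156 (0.31, 95% interval 0.05 to 0.58, adjusted p = 0.219) and the lowest that of tile 191 (−0.28, adjusted p = 0.421). For 92 of the 99 pairs the 95% interval lay within ±0.5.

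Within each genotype, the tiles that start in coding sequence were the least neurite-enriched Sos2 reporters. Their median LR was −0.08, −0.17, −0.15 and −0.11 in the 4 wild-type replicates and −0.14, −0.22, −0.27 and −0.23 in the 4 knockout replicates. Segment medians of the fitted LR were −0.13 there against −0.03 to 0.01 in the other segments of wild-type cells, and −0.19 against −0.07 to −0.06 in knockout cells. This is a description along overlapping tiles, and no test was made between segments.

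Single tiles passed the test within a genotype. In wild-type cells 1 of 351 oligos was called lower in neurites (background 1.48%), tile 253, next to the last. It held 45.9, 45.1, 49.0 and 49.6 CPM in wild-type soma and 35.0, 35.2, 38.0 and 39.8 CPM in neurites, which do not overlap (LR −0.36, SE 0.075, adjusted p = 0.00222). The call was lost without replicate 2 (adjusted p = 0.0234) or replicate 3 (0.0138). In knockout cells it held 48.3, 49.6, 54.8 and 51.5 CPM in soma and 32.6, 38.2, 44.1 and 45.3 CPM in neurites, again without overlap. Its mutated partner held 32.7, 30.1, 33.3 and 33.7 CPM in wild-type soma and 26.7, 27.4, 25.5 and 28.4 CPM in neurites (LR −0.27, adjusted p = 0.0185), and 33.5, 33.8, 34.2 and 34.7 CPM in knockout soma with 22.6, 29.5, 28.4 and 29.2 CPM in neurites (LR −0.31, adjusted p = 0.00702). Fractions do not overlap in any of these comparisons, and the LR of mutated tile 253 passed the FDR of 0.01 in knockout cells alone.

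In knockout cells 10 of 351 oligos were called lower in neurites (background 1.22%). They were tiles 11, 12, 19, 22, 31, 34, 195 and 253 and mutated tiles 190 and 253, so 6 of the 10 start in coding sequence. The count was 7 without replicate 1, 2 without replicate 2, 1 without replicate 3 and 4 without replicate 4, and 66 with upper-quartile scaling. The share of all oligos called with that scaling is not given here, so the 66 cannot be set against 1.22%. Tile 34 held 21.0, 23.9, 26.4 and 21.7 CPM in knockout soma and 17.6, 17.1, 16.4 and 18.5 CPM in knockout neurites (LR −0.41, SE 0.089, adjusted p = 0.00191). Its wild-type values were 21.7, 19.3, 20.9 and 21.5 CPM in soma and 18.0, 16.7, 17.1 and 16.9 CPM in neurites. Soma lay above neurites in both genotypes.

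Levels within a fraction differed by small amounts between genotypes. In soma 290 of the 351 oligos had a value above 0 for knockout minus wild type, with a median of 0.07 (log2), and 1 was called higher (background 7.55%). That oligo was tile 169, with sites 1 to 3. It held 76.1, 81.8, 83.9 and 81.6 CPM in wild-type soma and 84.0, 91.4, 104.3 and 95.3 CPM in knockout soma, which do not overlap (0.21, SE 0.053, adjusted p = 0.00807). The call was lost without replicate 2, 3 or 4 (adjusted p = 0.0384 to 0.0675) and with upper-quartile scaling (0.0610). Mutated tile 169 held 53.6, 59.4, 56.6 and 51.8 CPM in wild-type soma and 59.5, 58.6, 67.7 and 61.7 CPM in knockout soma, which overlap (0.16, adjusted p = 0.102). The difference between tile 169 and its partner did not pass (−0.05, SE 0.063, limma, adjusted p = 0.900). In neurites the median was 0.02, and 0 of 351 were called by edgeR and 0 by DESeq2, with 27 at an unadjusted p under 0.05 (background 8.76%).

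The share of all UMIs taken by the Sos2 oligos is given beside these values because it moved with fraction and genotype. It was 1.86% to 1.98% in the knockout neurite libraries and 2.75% to 3.05% in the other libraries. The TMM scaling factors of the knockout neurite libraries were 0.707 to 0.761, against 1.06 to 1.15 elsewhere, and their most abundant oligo took 25956 to 32009 UMIs, against 7608 to 12566. With upper-quartile scaling in place of TMM, 60 Sos2 oligos were called lower in knockout neurites and the median neurite change of all oligos was −0.16. Under that scaling 1 Sos2 oligo was called lower for the LR change. The shares of all oligos called under it are not given here, so these counts cannot be read as particular to Sos2.

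Recombinant TDP-43 enriched few of the Sos2 tiles over the pool as a whole. Binding is given as R, the frequency of an oligo among bound reads divided by its frequency in the input, with 0.5 added to each count. An R above 1 means enrichment relative to the rest of the pool, so R says nothing of absolute affinity. Of 349 Sos2 oligos tested at 500 nM against input, 7 were called higher (background 12.3%) and 239 lower (background 29.2%) by edgeR at an FDR of 0.05. The lower calls were 149 tiles and 90 mutated partners. Without 500 nM replicate 2 the higher calls fell to 3 and without replicate 1 to 5, and with the replicate number as a block they were 4. The study used 2 protein batches, and the sources used here do not say whether the replicate numbers mark them. The fitted log2 difference had a median of −3.81 over the Sos2 oligos and −0.55 over all 11025 oligos. In all, Sos2 oligos made up 2.28% of input reads and 0.919% and 1.07% of reads at 500 nM.

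The 7 higher calls were neighbours, tiles 100 to 106, without any of the designed motifs. They share 224 bases, chr12:69584594-69584817, and together span UTR positions 270 to 565. Tile 103 had R values of 0.893 without protein, 0.738 and 0.699 at 5 nM, 0.518 and 0.617 at 50 nM, and 2.36 and 2.67 at 500 nM (mean 2.51 ± 0.21, SD, n = 2). Its log2 difference at 500 nM was 1.33 (SE 0.33, adjusted p = 0.00871). Tile 104 had 0.603 without protein, 0.774 and 0.731 at 5 nM, 0.484 and 0.569 at 50 nM, and 2.44 and 2.52 at 500 nM. For tiles 103 and 104 the order of the concentrations is thus not monotonic, with R below 1 up to 50 nM and above 2 at 500 nM in both libraries. At 50 nM both were called lower than input (−0.82, adjusted p = 0.0488, and −0.92, adjusted p = 0.0433), close to the threshold.

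The edges of the stretch were gradual. Tile 99 had R values of 1.58 and 1.82 at 500 nM (adjusted p = 0.0773) and tile 100 had 1.91 and 2.14 (log2 difference 1.02, SE 0.35, adjusted p = 0.0358). On the other side tile 106 had 2.29 and 2.22 (adjusted p = 0.00933), tile 107 had 1.46 and 1.43 (adjusted p = 0.247), and tile 108 had 0.929 and 0.917. R at 500 nM was thus below 1 at 2 tiles from the last called one. Against 5 nM, 12 tiles were called higher at 500 nM (background 17.1%), namely tiles 73, 86, 87, 89 and 99 to 106, and 201 oligos were called lower (background 30.8%, 131 lower without 500 nM replicate 1). Tile 81 had R values of 1.59 and 3.35 at 500 nM, but only 6 reads in the input.

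At 50 nM the tiles above input were others. Tiles 6, 7, 8, 11 and 17 were called higher (background 11.5%) and 206 oligos lower (background 31.4%). Without 50 nM replicate 2 these counts fell to 0 and 22, with the replicate block to 0 and 118, and without 50 nM replicate 1 the lower calls fell to 118. Tile 7, all coding, had R values of 1.65 without protein, 1.48 and 1.99 at 5 nM, 2.01 and 2.48 at 50 nM, and 1.16 and 0.882 at 500 nM. It was thus already above 1 without protein and was near 1 at the highest concentration. Tile 1 stayed between 0.801 and 1.16 in all 7 libraries. At 5 nM and without protein 0 Sos2 oligos were called against input by edgeR (33 and 24 at an unadjusted p under 0.05, background 0.0454% and 0.0363%). DESeq2 called 1 lower in each of these contrasts, and 7 higher and 221 lower at 500 nM against input.

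The tiles with the UG-containing motifs were among the least represented at 500 nM. The median R in the 2 libraries was 0.406 and 0.539 in tiles 1 to 55, 0.417 and 0.647 in tiles 56 to 133, 0.0329 and 0.105 in tiles 134 to 192, 0.0164 and 0.0441 in tiles 193 to 214, and 0.0265 and 0.0565 in tiles 215 to 254. The lower calls were 20 of 55, 28 of 75, 44 of 59, 18 of 22 and 39 of 40 in the same order. The longest run of neighbouring lower tiles was tiles 208 to 253, 46 in all, and takes in the tiles of site 4. The segment between the sites, which has no motif, had the lowest medians. Tile 209 had 216 input reads and 0 and 1 reads at 500 nM, and tile 214 had 75 input reads and 0 in both.

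R followed base composition along the tiles. Over the 238 tiles whose sequence is fully known from the annotation, mean R at 500 nM had a Spearman correlation of 0.84 with percent GC and of −0.79 with percent T. At 50 nM the correlation with percent GC was 0.67, and without protein it was −0.003. The tiles share sequence and were read in the same libraries, so these are descriptions without a p. The rank order of the tiles was shared by both 500 nM libraries (0.93, 254 tiles) and fell off towards lower concentrations (0.69 with 50 nM, 0.39 with 5 nM, 0.06 without protein). LR change in the MPRA and R at 500 nM had a correlation of −0.01 over 252 tiles.

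Tiles with site 4 more often had a higher R than their mutated partners, while few pairs passed a test. Over 99 pairs the median R at 500 nM was 0.0457 for mutated oligos and 0.0549 for their tiles. With site 4, the mutated oligo had the lower R in both libraries in 27 of 40 pairs, the higher in both in 1, and opposite signs in 12. With sites 1 to 3 these counts were 21, 17 and 21 of 59. Reads were few, with a median of 12 and 15 per Sos2 oligo in the 2 libraries at 500 nM. Median input reads were 307.5 for mutated oligos and 242 for tiles with site 4, and 84 and 98 with sites 1 to 3. Site and depth can thus not be told apart here. Over all pairs with at least 100 input reads on both sides, the counts were 32, 7 and 16 of 55. Tile 254, the last, had R values of 0.212 and 0.559 at 500 nM and mutated tile 254 had 0.0586 and 0.176. Tile 253 had 0.0822 and 0.216 and its mutated partner 0.0538 and 0.154. Tile 134, the first with site 1, had 0.201 and 0.683 and its partner 0.233 and 0.749, so here the 2 libraries differed by more than the oligo and its partner. Of 98 pairs tested with limma at 500 nM against input, 0 were called and 3 had an unadjusted p under 0.05. Over the 4118 pairs of the pool 2.16% were called. Against 5 nM, the mutated oligo was called lower for tiles 237 (−0.84, adjusted p = 0.0459) and 254 (−1.68, adjusted p = 0.0377), both with site 4, where 15.7% of all pairs were lower. It was called higher for tile 145, with sites 1 and 2 (2.91, adjusted p = 0.0403, background 3.59%). Without 5 nM replicate 1 these counts became 23 lower and 11 higher, without 5 nM replicate 2 12 and 2, and without any single library at 50 or 500 nM 0 and 0. Against the library without protein, the mutated oligo was called lower for tiles 188, 225 and 253 (background 9.71%) and higher for tile 184 (background 1.89%). With the replicate block, 0 pairs were called in any of these contrasts.

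In SLAM-seq, the Sos2 reporters held less label after the chase in knockout than in wild-type cells in 2 of 3 knockout libraries. The median T to C conversion over the Sos2 oligos before the chase was 2.00% and 2.04% in wild-type cells and 1.85%, 1.89% and 1.96% in knockout cells. After 12 h it was 1.16%, 1.15% and 1.33% in wild-type cells and 1.34%, 0.338% and 0.396% in knockout cells. The knockout library of replicate 1 thus lies at the wild-type level, and the other 2 lie far below it. Libraries without 4SU gave 0.200%, 0.145% and 0.123%. The same division was seen over all oligos of the pool, with 1.37% in that library against 0.465% and 0.511%.

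With all libraries, 0 of 327 Sos2 oligos were called by edgeR for the difference in label loss, 20 had an unadjusted p under 0.05, and limma on log2 odds also called 0. The background was 0 of 10576 oligos (0%). The median difference in log2 odds was −0.97, with 324 of 327 below 0, beside −0.79 over all oligos. Without knockout 12 h replicate 1, 314 of the 327 were called lower, where 96.3% of all oligos were, and the median was −1.58 against −1.33 over all. A fit relative to the median oligo of each library was added after the data were seen. In it, again without that replicate, 57 of the 327 Sos2 oligos lost more label (background 5.69%) and 3 lost less (background 10.1%). Conversion without 4SU was not subtracted in this fit. It was 0.244%, 0.194% and 0.164% over all oligos, above the Sos2 medians in the same libraries. Whether this difference adds to the Sos2 counts was not tested. Before the chase 0 of 327 differed between genotypes by edgeR, 0 by limma, and 0 had an unadjusted p under 0.05 (background 0%).

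Tile 1 held conversions of 2.31% and 2.30% before and 1.39%, 1.44% and 1.59% after the chase in wild-type cells. In knockout cells it held 1.99%, 2.18% and 2.24% before and 1.63%, 0.521% and 0.611% after. The knockout values after the chase lie on both sides of the wild-type values (−0.77, SE 0.653). Without replicate 1 the difference was −1.28 (SE 0.171, edgeR, adjusted p = 2.26e-07), in a fit made after the values were seen. Leaving out the library that differs narrows the spread, and 96.3% of all oligos were then called lower. The p is thus not particular to tile 1. Tile 103, enriched by TDP-43 in vitro, held 2.00% and 1.75% before and 0.963%, 1.25% and 1.04% after in wild-type cells. In knockout cells it held 1.88%, 1.77% and 1.92% before and 1.08%, 0.302% and 0.307% after, with a difference of −1.20 (SE 0.665, adjusted p = 0.453). It thus shows the same division between the knockout libraries as tile 1.

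Segment medians of the difference in loss lay between −1.07 and −0.70. The median difference in loss was −0.70 in tiles 1 to 55 and −0.92, −1.04, −1.01 and −0.98 in the following segments, and −1.07 and −0.90 in mutated oligos with sites 1 to 3 and with site 4. Tile 169 had −1.11 and its mutated partner −1.20. In tiles 1 to 55, median conversion after the chase was 0.880%, 0.275% and 0.370% in the knockout libraries. Libraries without 4SU gave 0.284%, 0.205% and 0.166% in these tiles, the highest median of any segment in each such library. Knockout conversion there was thus partly at background level. A fit with conversion without 4SU subtracted was run as an alternative, and its values for tiles 1 to 55 are not given here. In wild-type cells the tiles that start in coding sequence lost the most label, with a segment median of −1.20 in log2 odds against −0.84 to −0.70 elsewhere. The lowest and highest differences were those of tile 53 (−1.88) and tile 44 (0.78), and neither passed the test.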

How the data were processed

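The authors deposited, for each MPRA library, counts of reads and of unique 8 nt UMIs per oligo, for RBNS counts of reads per oligo, and for SLAM-seq counts, for every oligo, of T positions that were sequenced as T or converted to C. For RNA-seq the authors trimmed reads with cutadapt and ran salmon, and deposited estimated counts and TPM per transcript. Versions are not given in the sources used here. The doxycycline dose in the labels is not that in the methods. The RBNS pool, an in vitro RNA, is labelled as CAD cells. RNA-seq of human motor neurons was not used here.

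Estimated counts were added up by gene (GENCODE, GRCm38) and rounded. UMI counts, RBNS counts and gene counts were tested over all features with edgeR 4.0.16 in R 4.3.3 (filterByExpr, glmQLFit, glmQLFTest, Benjamini-Hochberg), with TMM and an FDR of 0.01 for MPRA and RNA-seq, and with total-count scaling and an FDR of 0.05 for RBNS. LR changes are the interaction of fraction and genotype. SLAM-seq used edgeR's modelMatrixMeth on oligos with at least 1000 T positions in each of 11 labelled libraries (FDR of 0.05). Pairs were tested with limma 3.58.1 on log2 ratios with 0.5 added to each count. DESeq2 1.42.0, other scalings, filters and thresholds, left-out replicates and replicate blocks were alternatives. Scripts were tested on simulated data. The SLAM-seq fit without knockout 12 h replicate 1, the transcript fits, the gene fits with plain library totals and with limma on log2(TPM + 1), and the RBNS pair tests were added after the data were seen. So were the SLAM-seq fits relative to the median oligo of each library.

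The oligos, gene lists and tests were chosen with earlier results of these data known. Oligos named are Sos2 tiles at the ends of the series, at the ends of runs of calls, and with the highest and lowest values in each test, with their mutated partners. Other named tiles were chosen after their values were seen. Motifs were searched on the RNA strand only. RBNS reads were not collapsed to molecules. Median UMIs per Sos2 oligo were 307 to 706 per library, which limits tiles with few UMIs.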

Additional observations from a re-analysis of the deposited data

Results flagged for a closer look

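In groups of 4 replicates, 1 library stood far from the other 3 in 2 of 36 groups examined, those of the 9 oligos whose MPRA values are given by library, and chance alone marks about 1 in 20 groups. Mutated tile 169 held 51.9 CPM in knockout neurite replicate 2, where the other 3 libraries lay at 55.5 to 55.7 CPM, so the gap was 0.942 of the range. Mutated tile 253 held 22.6 CPM in knockout neurite replicate 1, where the others lay at 28.4 to 29.5 CPM, a gap of 0.831 of the range.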

How the results depend on the processing

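For the MPRA LR change, upper-quartile scaling and an FDR of 0.05 each called 1 Sos2 oligo lower. For LR in wild-type cells, the 1 lower call became 2 with DESeq2, upper-quartile scaling or read counts and 7 at an FDR of 0.05 (with 2 higher), and 0 to 1 with a replicate left out (0 without replicate 2 or 3). In knockout cells, the 10 lower calls became 66 with upper-quartile scaling, 26 at an FDR of 0.05 and 1 to 7 with a replicate left out. The 1 higher soma call became 0 with upper-quartile scaling (1 lower), 5 at an FDR of 0.05, and 0 to 1 with a replicate left out (0 without replicate 2, 3 or 4). In neurites, an FDR of 0.05 called 1 higher and 2 lower, read counts 1 lower, upper-quartile scaling 60 lower, and left-out replicates 0 to 1 higher (1 without replicate 4). Upper-quartile scaling moved the median LR change of all oligos to −0.08, and its shares of calls over all oligos are not given here. For RBNS at 500 nM against input, the 7 higher calls became 14 with TMM, 13 against 0 nM and 2 at an FDR of 0.01, and the 239 lower ones 154 at an FDR of 0.01, with 3 to 7 higher and 161 to 261 lower when a library at 500, 50 or 5 nM was left out. Against 5 nM, the 201 lower calls became 131 at an FDR of 0.01 and 131 to 214 with a library left out (9 to 11 higher). At 50 nM, the 5 higher calls became 13 with TMM, 0 at an FDR of 0.01 and 0 to 5 with a library left out, and the 206 lower ones 52 at an FDR of 0.01 and 22 to 269 with a library left out. Of the RBNS pairs, 1 was called lower with at least 100 input reads, and 0 to 4 with a library left out. Against 5 nM, the 1 higher and 2 lower pairs became 1 and 6 with at least 100 input reads, 0 and 0 at an FDR of 0.01, and 0 to 11 and 0 to 23 with a library left out. Against 0 nM, the 1 higher and 3 lower became 0 and 3 with at least 100 input reads and 0 and 0 at an FDR of 0.01. At 50 nM in place of 500 nM, tiles 103 and 104 turned to −0.82 and −0.92. SLAM-seq calls ran from 0 to 314 lower and from 0 to 3 higher with a replicate left out. They were 308 lower without replicate 1 of every group and 314 without that of knockout 12 h alone, and relative to the median oligo 57 lower and 3 higher without it. The Sos2 gene LR change ran from −0.66 to −0.56 in CAD, −0.96 to −0.84 in N2A and 0.09 to 0.27 with Q331K with a replicate left out. Without TMM it was −0.48 in CAD, and with limma on log2(TPM + 1) −0.32 in CAD and −0.77 in N2A, none of which passed. The LR of the gene after TMM turned to −0.43 (CAD wild type), −0.31 (transgene wild type) and −0.17 (Q331K) with plain totals, and to −1.29, −0.55 and −0.39 with TPM. With TPM that of N2A wild-type cells turned to −0.81, and the soma changes turned to −0.56 in CAD and −0.37 in N2A. Lower Ras genes in N2A became 7 at an FDR of 0.05 and 8 with DESeq2, rules whose shares over all genes are not given here. The cause of these shifts was not tested beyond the stricter or looser threshold itself.

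With the replicate number as a block, MPRA calls became 2 higher in soma and 1 higher in neurites, and RBNS calls became 4 higher at 500 nM and 0 higher and 118 lower at 50 nM, with 0 pairs against 5 nM or 0 nM. The fall of Sos2-207 in N2A soma had an adjusted p of 0.0157 with the block. The block moved no other count of Sos2 calls by over 1.5 times. Among comparisons with at least 3 pairs, each same-numbered pair deviated together (correlation over 0.1) between the genotypes in N2A soma (0.12 to 0.55) and between the fractions of wild-type CAD cells (0.10 to 0.23), and at least 1 pair did not in each of the others. With the numbers of the 500 nM libraries crossed, 12 oligos were called higher and 215 lower against 5 nM. Where a left-out library leaves 1 at a concentration, that library is assumed to vary like the others.

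Tests rest on 2 to 4 samples per group. RBNS has 1 input library, so its own variation is assumed to equal that of the other libraries. Tiles with few UMIs or input reads allow only wide intervals, and a miss of the threshold does not show that values are equal.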

Other observations

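The level of a reporter in cells followed its level in the RNA pool only in part. Median CPM in wild-type soma divided by CPM in the RBNS input was 0.314 in tiles 1 to 55, 0.576 in tiles 56 to 133, 2.96 in tiles 134 to 192, 14.1 in tiles 193 to 214 and 2.08 in tiles 215 to 254. Across the 254 tiles, soma level and input level had a Spearman correlation of 0.34, and across 7141 unmutated oligos of the pool one of 0.47. The ratio had a correlation of −0.76 with percent GC over 238 Sos2 tiles. These are descriptions over overlapping sequences from the same libraries.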
